A study of Mus musculus with 4 samples.

Results

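The genes described here are the cytochrome P450 genes of families 1 to 4 and the UDP-glucuronosyltransferase genes of families 1 and 2 in Hepa1-6, a cell line derived from a mouse hepatocellular carcinoma. Within these families members were taken by gene symbol alone. The rule gave 95 genes of the 54838 in the deposited tables, 76 of them P450 genes and 19 of them UGT genes. RNA was sequenced from 2 libraries labelled NC, whose genotype is wild type for Acvr2a, and 2 libraries labelled KO, whose genotype is Acvr2a knockout. Acvr2a encodes a type II receptor for activin. The series' title places the comparison within work on lactate production and regulatory T cells in liver cancer. The knockout cells are called subclones, and the sources used here do not say whether the KO libraries are separate subclones or cultures of 1, nor what treatment the NC cells had. No drug or inducer is named for either group.

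Cytochrome P450 enzymes are haem proteins of the endoplasmic reticulum that put an oxygen atom into drugs, steroids, fatty acids and pollutants, with electrons passed to them by the reductase Por. UGT enzymes join glucuronic acid to such products, bilirubin and steroids, so that they can leave the cell in bile or urine. In hepatocytes many of these genes are among the most highly expressed of all, under the control of liver factors such as Hnf4a and of receptors that sense foreign compounds, among them Ahr, Nr1i2 (PXR) and Nr1i3 (CAR). Cultured hepatoma lines are known to keep only part of this programme.

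Library totals lay between 11597923 and 13910582 expected counts. The Acvr2a counts were 80.99 and 108.43 in the NC libraries and 74.69 and 97.4 in the KO libraries, and the log2 fold change of KO over NC, called the log2 ratio in places below, was -0.21 (SE 0.20, adjusted p = 0.433, edgeR). The Acvr2a RNA level therefore did not separate the groups, and all directions below follow the labels. Hepatocyte markers were present in part: Alb had 9550 and 10496 counts in the NC libraries, against 12715 and 15545 in the KO libraries, while Ttr had at most 1 count in any library, Serpina1a at most 5, and Cps1 had none. Of the leukocyte markers Ptprc had at most 2 counts per library and Cd3e had 0, but Cd68, a lysosomal protein of macrophages and other cells, had 252, 338, 623 and 812 counts and rose in KO (log2 fold change 1.203, SE 0.12, adjusted p = 1.34e-08). Of the endothelial markers Cdh5 had 0, and Vwf and Pecam1 had between 4 and 13 counts per library.

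Of the 95 members, 61 had 0 counts in all 4 libraries, 49 of them P450 genes and 12 of them UGT genes. That is 64.2% of the members, close to the 62.3% of all genes listed that had 0 counts. A further 21 had a few counts but fell under the filter on low counts, and 13 members, 11 P450 genes and 2 UGT genes, were measured well enough to be tested. The same 13 had a mean deposited TPM (a level scaled for transcript length and library size) of at least 1 in 1 group or the other. With a TPM minimum of 0.1 the number was 18 in NC and 22 in KO. A count of 0 allows up to 3 counts, or between 0.216 and 0.259 CPM (counts scaled to library size), so the silent members were below detection at this depth.

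Of 9 classical P450 genes of mouse liver, 6 were silent and Cyp1a2, Cyp2c29 and Cyp2f2 had a few counts. Cyp2b10, the classical target of CAR, Cyp3a11 and Cyp3a25, the abundant hepatic Cyp3a genes, Cyp2e1, which oxidises ethanol and small solvents, and Cyp4a10 and Cyp4a14, the fatty acid hydroxylases induced through Ppara, had 0 counts in all libraries. Whole subfamilies were at 0: the 4 Cyp2a genes, the 5 Cyp2b genes, the 5 Cyp4a genes, the 3 Ugt2a genes and the single genes of Cyp2e, Cyp2g, Cyp2t, Cyp2w and Cyp4x. Cyp2f2 had 2 counts, both in NC replicate 2.

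**Figure D1:**
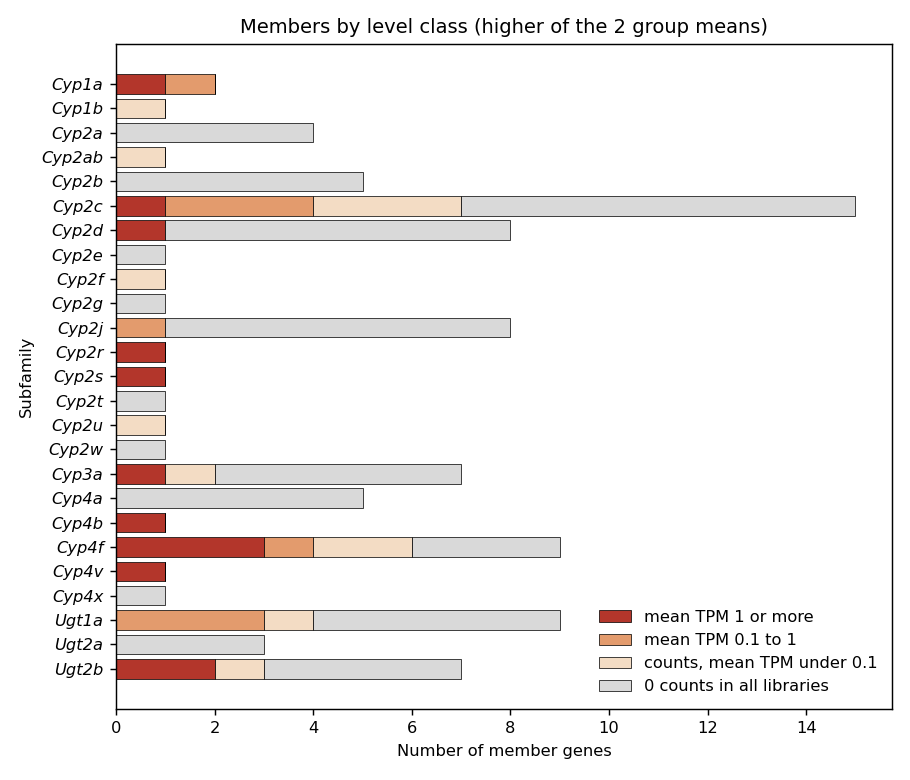
Number of member genes in each of the 25 subfamilies (x axis), divided by level class, where the class is set by the higher of the group means of deposited TPM. The 13 genes at a TPM of 1 or more are spread over 10 subfamilies, with 3 in Cyp4f and 2 in Ugt2b, and 9 subfamilies hold only genes with 0 counts.

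Of the 21 members with counts under the filter, 9 had at least 5 counts over all libraries. In the order NC 1, NC 2, KO 1 and KO 2, the Cyp2c genes among them, whose enzymes oxidise drugs and arachidonic acid, gave 4, 3, 7 and 3 counts for Cyp2c23, 1, 3, 3 and 4 for Cyp2c29, and 4, 2, 3 and 2 for Cyp2c55. Cyp2j6 had 3, 2, 5 and 7 counts. Cyp1a2, the caffeine-oxidising enzyme of hepatocytes, had 2, 7, 0 and 1 counts, and Cyp1b1, which hydroxylates oestrogens, had 1, 3, 3 and 0. Without the filter edgeR tested all 21 members and called 0 of them, with 1, Cyp1a2, at an unadjusted p under 0.05. The unfiltered limma fit on log2(TPM + 1) also called 0, with 1, Cyp4f37, at an unadjusted p under 0.05. The UGT genes in this range were Ugt1a6a with 5.08, 4.96, 0 and 4.67 expected counts, Ugt1a7c with 0.55, 1.57, 1.39 and 4.33, and Ugt2b1 with 0, 0, 3 and 2. The other 12 members held at most 4.61 counts each.

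The measured members covered a wide range of levels. Cyp2s1, a P450 best known from epithelia outside the liver, stood far above the others with deposited TPM of 124.47 and 130.88 in NC and 127.23 and 130.09 in KO. It made up 51.6% of the summed P450 TPM over the 4 libraries. Its mean TPM lay at the 95.8th percentile of all genes with a count. Cyp4f16 and Cyp1a1 followed, with 15.01% and 13.14% of the P450 TPM. The remaining P450 genes had a mean TPM below that of both UGT genes. Among the UGT genes Ugt2b34 made up 65.0% and Ugt2b35 34.1% of the summed TPM. In the ranking by mean TPM the ranges of neighbours over the 4 libraries overlapped, except between Cyp2s1 and Cyp4f16, Ugt2b34 and Ugt2b35, and Cyp3a13 and Cyp4v3.

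**Figure D2:**
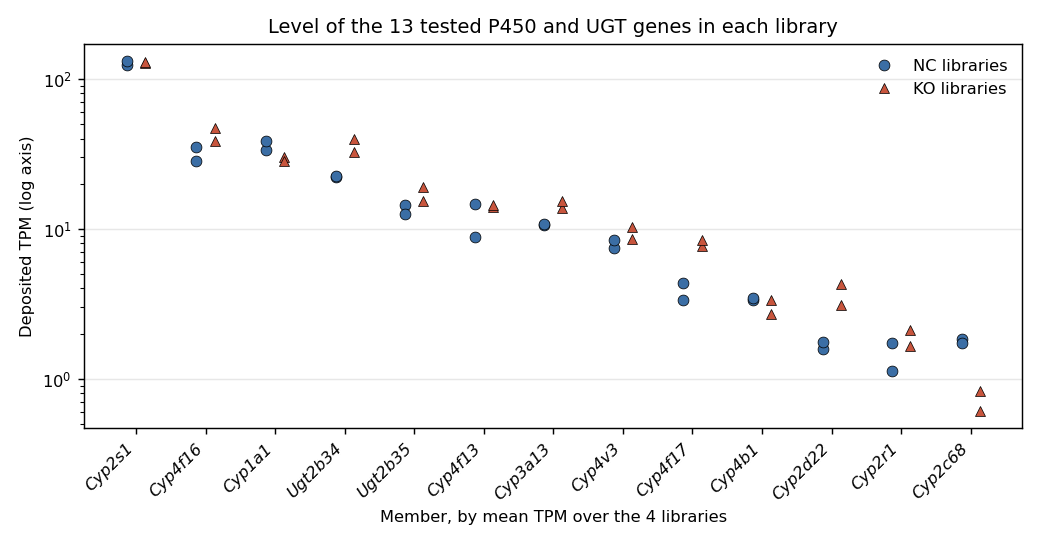
Deposited TPM (y axis, log scale) of the 13 tested members in each of the 4 libraries, ordered by mean TPM (circles NC, triangles KO). Cyp2s1 sits above 120 TPM in all libraries with both groups at the same height, Ugt2b34, Ugt2b35, Cyp4f16, Cyp4f17, Cyp3a13, Cyp4v3 and Cyp2d22 have both KO triangles above both NC circles, and Cyp1a1 and Cyp2c68 have both below.

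Expression of 8 of the 13 tested members differed between KO and NC at an adjusted p under 0.05 in edgeR's quasi-likelihood test, against 37.9% of all genes tested. Higher in KO were 6 of them, Ugt2b34, Cyp4f13, Cyp4f16, Cyp4f17, Cyp3a13 and Cyp2d22, where 19.7% of all genes tested were higher. Lower in KO were Cyp1a1 and Cyp2c68, where 18.2% of all genes were lower. The median log2 fold change of the 13 was 0.37, against -0.0037 over all genes tested. The CPM of the groups did not overlap for 10 of the 13 (7 higher in KO, 3 lower), against 69.4% of all genes. All 13 were above the filter's level in each of the 4 libraries, so none was tested only because of the group in which it was high. The count of 8 fell to 5 with DESeq2, to 5 without NC replicate 2 and to 5 without KO replicate 2, fits in which 25.7%, 29.9% and 28.7% of all genes were called. It fell to 4 on the log2(TPM + 1) scale, where 17.3% of all genes were called. On that scale 68.0% of all calls were higher in KO, against 51.9% on counts.

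**Figure D3:**
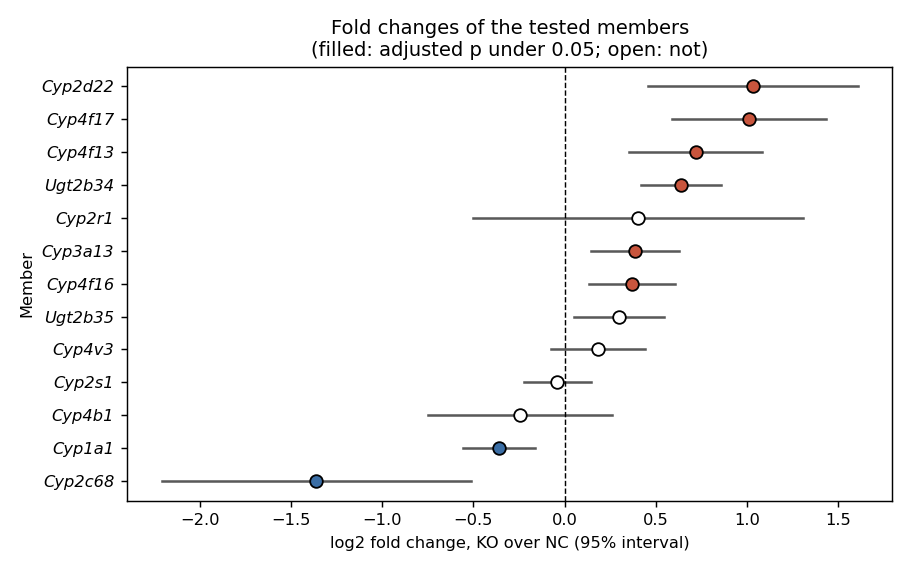
log2 fold change of KO over NC (x axis) with its 95% interval for the 13 tested members, filled where the adjusted p was under 0.05. The changes run from -1.36 for Cyp2c68 to 1.03 for Cyp2d22, and the intervals of Cyp2s1, Cyp4b1, Cyp4v3 and Cyp2r1 cross 0.

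In family 1, Cyp1a1 was well expressed and fell in KO, while its neighbour Cyp1a2 was almost absent. Cyp1a1 (ENSMUSG00000032315.6, chromosome 9, 57687928 to 57703824, plus strand), the enzyme that oxidises polycyclic aromatic hydrocarbons and is switched on by the Ahr receptor, had 850 and 1143 counts in the NC libraries, against 816 and 819 in the KO libraries. In CPM, here scaled by TMM factors, this was 78.6 ± 5.50 in NC and 61.3 ± 0.922 in KO (SD, n = 2 here and for all such values below). Both KO libraries were below both NC libraries, and the log2 fold change was -0.36 (SE 0.096, adjusted p = 0.00407), or 1.28-fold less in KO. The call was lost without NC replicate 2, where the log2 fold change was -0.28 (adjusted p = 0.0810; range over all alternatives 0.00151 to 0.233), and on the TPM scale. Of the 50-base words of the Cyp1a1 transcripts, 3.43% occur also in Cyp1a2, and the sum over both Cyp1a genes gave a log2 ratio of -0.37 (adjusted p = 0.00363).

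The Cyp1a genes lie head to head on chromosome 9, with RefSeq start sites 14.0 kb apart, and the 250 bases before each start are shown because one of the pair was expressed and the other was near 0. Sequences are from RefSeq on GRCm38.p6, 5′ to 3′ on the gene's strand, and the capitals mark GCGTG, the core of the element bound by Ahr with Arnt, and the TATAAA box. The Cyp1a1 bases are chr9:57697363-57697612 on the plus strand and the Cyp1a2 bases are chr9:57683656-57683905 on the minus strand. The Cyp1a1 span given above is from GENCODE, whose starts for the pair are 4.2 kb apart. The Cyp1a1 bases shown therefore lie inside that span.
Cyp1a1: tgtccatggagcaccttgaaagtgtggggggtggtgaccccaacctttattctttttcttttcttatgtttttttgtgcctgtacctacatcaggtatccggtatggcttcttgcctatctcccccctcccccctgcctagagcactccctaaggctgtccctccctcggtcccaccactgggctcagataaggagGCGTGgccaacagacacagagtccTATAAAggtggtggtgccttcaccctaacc
Cyp1a2: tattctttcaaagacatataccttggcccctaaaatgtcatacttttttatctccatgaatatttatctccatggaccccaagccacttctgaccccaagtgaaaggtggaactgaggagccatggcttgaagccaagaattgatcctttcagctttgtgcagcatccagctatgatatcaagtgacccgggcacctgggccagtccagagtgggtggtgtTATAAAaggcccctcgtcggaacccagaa
In Cyp1a1 the GCGTG begins at -54 and the TATAAA at -30, counted from the start site. Cyp1a2 has a TATAAA at -29 and no GCGTG or its reverse complement CACGC within these 250 bases. Of 32851 RefSeq promoters of this length, 28.2% hold GCGTG on one strand or the other and 7.59% hold TATAAA on the gene's strand, so these short words are common. Whether Ahr binds the GCGTG at -54 was not tested, and bases farther upstream were not searched. The longest run of bases shared by the pair was 9.

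Family 2 has the most members, 49, and 35 of them had 0 counts. Of its 4 tested members Cyp2d22 rose, Cyp2c68 fell, and Cyp2s1 and Cyp2r1 did not pass the test. Cyp2d22 (ENSMUSG00000061740.8, chromosome 15, 82370527 to 82380260, minus strand), regarded as the mouse counterpart of the human drug-oxidising CYP2D6, had 33 and 34 counts in the NC libraries, against 63 and 83 in the KO libraries. Both KO libraries were above both NC libraries, at 5.46 ± 0.964 against 2.68 ± 0.316 CPM. The log2 fold change was 1.03 (SE 0.28, adjusted p = 0.00423), or 2.05-fold. Without KO replicate 2 it was 0.84 and no longer passed (adjusted p = 0.0867; range over all alternatives 0.000932 to 0.148). The other 7 Cyp2d genes, which share its 423.8 kb cluster, had 0 counts.

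Cyp2c68 (ENSMUSG00000074882.3, chromosome 19, 39688834 to 39741054, minus strand) was the only tested gene of the 15 Cyp2c genes. It had 29 and 32 counts in the NC libraries, against 14 and 11 in the KO libraries, or 2.43 ± 0.170 and 0.939 ± 0.176 CPM, with both KO libraries below both NC libraries. The log2 fold change was -1.36 (SE 0.41, adjusted p = 0.00877), or 2.57-fold less in KO. It is the tested member with the least sequence of its own, since 43.3% of its 50-base words occur in other genes and 35.6% in Cyp2c40, which was given 0 counts, so its counts are uncertain. The sum of all Cyp2c genes, 38 and 41 counts in the NC libraries, against 29 and 20 in the KO libraries, had a log2 ratio of -0.77 (SE 0.34) and did not pass (adjusted p = 0.0717). The call for Cyp2c68 itself was lost in DESeq2 and without KO replicate 2, with adjusted p from 0.00427 to 0.117 over all alternatives.

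Cyp2s1 (ENSMUSG00000040703.11, chromosome 7, 25802475 to 25816913, minus strand) was the most abundant member and its level did not differ detectably. It had 3322 and 4026 counts in the NC libraries, against 3614 and 3952.9 in the KO libraries, or 291.5 ± 1.04 and 283.5 ± 12.97 CPM, and the groups overlapped. The log2 fold change was -0.040 (SE 0.090, 95% interval -0.22 to 0.14, adjusted p = 0.763), and it turned to 0.0085 without KO replicate 1 and to 0.011 on the TPM scale. As a ratio of KO over NC the interval runs from 0.856 to 1.11. It begins a cluster of 13 Cyp2 genes over 1356.2 kb in which it alone was tested and 11 had 0 counts. The predicted gene Gm26707, which overlaps its exons on the other strand, had between 3 and 8 counts. Cyp2r1 (ENSMUSG00000030670.16), the vitamin D 25-hydroxylase of the endoplasmic reticulum, had 14, 13, 21 and 17 counts in the order NC 1, NC 2, KO 1 and KO 2, and its log2 fold change of 0.40 (95% interval -0.50 to 1.31) did not pass.

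In family 3, Cyp3a13 was expressed and rose in KO, and the abundant hepatic genes were silent. Cyp3a13 (ENSMUSG00000029727.7, chromosome 5, 137892932 to 137921619, minus strand) had 308 and 363 counts in the NC libraries, against 424 and 507 in the KO libraries. At 26.7 ± 0.621 CPM in NC and 34.9 ± 3.78 in KO the groups did not overlap, and the log2 fold change was 0.39 (SE 0.12, adjusted p = 0.0104), or 1.31-fold. The gene stands alone, 7958.3 kb from Cyp3a11, while the other 6 Cyp3a genes share a 768.0 kb cluster in which 5 had 0 counts and Cyp3a57 had 1. None of its 50-base words occurs in another gene. The call was lost in DESeq2, without NC replicate 2, without KO replicate 2, where the log2 fold change was 0.27, and on the TPM scale (adjusted p 0.00203 to 0.152 over all alternatives).

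Family 4 held the group of members that rose together, the Cyp4f genes. Some enzymes of this subfamily hydroxylate leukotriene B4, other eicosanoids and fatty acids at the far end of the chain. Which of these activities the expressed genes carry was not tested. Of the 9 Cyp4f genes 3 were tested and all 3 rose, and the sum over the subfamily was 484 and 511 counts in the NC libraries, against 776 and 759 in the KO libraries. That sum was 39.7 ± 4.01 CPM in NC and 57.5 ± 1.92 in KO, with a log2 ratio of 0.54 (SE 0.10, adjusted p = 0.000186), a call that was lost on the log2(TPM + 1) scale, where the value was 0.48. With all 25 subfamilies as 1 row each, 10 were tested, of which Cyp4f, Ugt2b, Cyp3a and Cyp2d were higher, Cyp1a was lower and 5 did not pass, and 37.9% of all rows in that table were called.

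Cyp4f17 (ENSMUSG00000091586.1, chromosome 17, 32506050 to 32530143, plus strand) had 68 and 60 counts in the NC libraries, against 126 and 149 in the KO libraries. Both KO libraries were well above both NC libraries, at 10.3 ± 1.04 against 5.16 ± 1.17 CPM, a log2 ratio of 1.01 (SE 0.21, adjusted p = 0.000313) or 2.01-fold. Cyp4f16 (ENSMUSG00000048440.15, chromosome 17, 32536558 to 32551798, plus strand), the most abundant of the 3, had 325 and 355 counts in the NC libraries, against 478 and 454 in the KO libraries. This was 27.1 ± 2.09 and 34.9 ± 1.89 CPM, and the log2 fold change was 0.37 (SE 0.12, adjusted p = 0.0133) or 1.29-fold. The change in Cyp4f16 was the less certain of the pair: its call was lost in DESeq2, without NC replicate 2, without KO replicate 1 and on the TPM scale, with adjusted p from 0.00668 to 0.241 over all alternatives. Of its 50-base words 16.3% occur in Cyp4f37, which had 0, 0, 2 and 1 counts.

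Cyp4f13 (ENSMUSG00000024055.15, chromosome 17, 32924688 to 32947402, minus strand) had 89 and 96 counts in the NC libraries, against 170 and 153 in the KO libraries. At 7.38 ± 0.634 CPM in NC and 12.1 ± 1.11 in KO the groups did not overlap, and the log2 fold change was 0.72 (SE 0.18, adjusted p = 0.00198) or 1.65-fold. Its TPM did not separate the groups, with 14.74 and 8.78 in NC and 14.00 and 14.38 in KO. The transcript length that the authors' estimate gives the gene differed between libraries, at 802.51 and 1124.73 bases in NC and 1310.64 and 1115.36 in KO, and TPM divides by that length. On the log2(TPM + 1) scale the change was 0.29 and did not pass (adjusted p = 0.383; range over all alternatives 0.000381 to 0.565).

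Cyp4f16 and Cyp4f13 start 410.8 kb apart in the same cluster, and the 250 bases before their RefSeq starts are shown because both genes rose. The Cyp4f16 bases are chr17:32536307-32536556 on the plus strand and the Cyp4f13 bases are chr17:32947362-32947611 on the minus strand. Capitals mark ATTGG, the reverse complement of the CCAAT box, and CACGC, the reverse complement of GCGTG.
Cyp4f16: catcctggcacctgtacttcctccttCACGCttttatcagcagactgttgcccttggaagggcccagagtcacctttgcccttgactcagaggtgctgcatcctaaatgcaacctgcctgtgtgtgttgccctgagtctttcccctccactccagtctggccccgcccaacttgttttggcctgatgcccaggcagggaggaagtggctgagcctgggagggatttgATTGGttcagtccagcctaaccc
Cyp4f13: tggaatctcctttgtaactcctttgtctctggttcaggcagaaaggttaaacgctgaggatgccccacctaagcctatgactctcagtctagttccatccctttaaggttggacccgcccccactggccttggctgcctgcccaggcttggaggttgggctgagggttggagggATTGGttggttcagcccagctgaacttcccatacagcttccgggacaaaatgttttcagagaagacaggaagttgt
ATTGG begins at -23 in Cyp4f16 and at -76 in Cyp4f13, and Cyp4f16 has CACGC at -224. A CCAAT box on either strand is in 33.9% of all 32851 promoters of this length. The longest run of bases the pair shares is 9. In the other tested members with a RefSeq promoter, CCAAT or ATTGG was found in Cyp3a13, Cyp2r1 and Cyp2c68, GCGTG or CACGC in Cyp2c68 and Cyp4v3, and none of the 3 words in Cyp2s1, Cyp4b1, Ugt2b34 or Ugt2b35.

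The Cyp4f cluster holds 8 Cyp4f genes over 494.7 kb of chromosome 17, of which Cyp4f15, Cyp4f39 and Cyp4f40 had 0 counts and Cyp4f14 and Cyp4f37 had 3 each. Cyp4f17 and Cyp4f16 start 30.5 kb apart. The 3 tested genes of other kinds in that span are zinc finger genes: Zfp799 fell (log2 fold change -0.54, adjusted p = 0.0156), and Zfp870 (0.33, adjusted p = 0.274) and Zfp871 (-0.098, adjusted p = 0.475) did not pass.

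The other tested members of family 4 did not pass the test. Cyp4v3 (ENSMUSG00000079057.4), the counterpart of the human fatty acid hydroxylase gene CYP4V2 that is mutated in a retinal dystrophy, had 286, 374.94, 349 and 445 counts, and the groups overlapped. Its log2 fold change was 0.18 (95% interval -0.073 to 0.44, adjusted p = 0.256). It shares exons with the predicted gene Gm45753, which was given at most 1.06 counts. Cyp4b1 (ENSMUSG00000028713.17), known for activating the lung toxin ipomeanol, had 59, 71, 63 and 53 counts and a log2 ratio of -0.24 (95% interval -0.75 to 0.26, adjusted p = 0.459). The other 6 members of its cluster, the 5 Cyp4a genes and Cyp4x1, had 0 counts.

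Glucuronidation genes were expressed from one end of the Ugt2 cluster. Ugt2b enzymes conjugate steroids, bile acids and drugs. Ugt2b34 (ENSMUSG00000029260.15, chromosome 5, 86889767 to 86906937, minus strand) had 675 and 786 counts in the NC libraries, against 1040 and 1378 in the KO libraries, or 58.1 ± 1.85 and 90.5 ± 16.3 CPM. Both KO libraries were above both NC libraries, although they differed from each other. The log2 fold change was 0.64 (SE 0.11, adjusted p = 3.57e-05) or 1.56-fold, the lowest adjusted p among the members. It was called in 11 of the 12 alternatives, and the exception is the unfiltered TPM fit, which called no gene at all.

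Ugt2b35 (ENSMUSG00000035811.10, chromosome 5, 87000860 to 87013275, plus strand) had 483 and 484 counts in the NC libraries, against 546 and 722 in the KO libraries, or 38.7 ± 5.33 and 47.4 ± 8.49 CPM. Its groups overlapped, and its log2 fold change of 0.30 (SE 0.12, 95% interval 0.053 to 0.54) narrowly missed the threshold (adjusted p = 0.050009). It passed in 6 of the 12 alternatives, the replicate block among them (adjusted p = 0.0183), and adjusted p ran from 0.000951 without KO replicate 1 to 0.602 without KO replicate 2. Summed over Ugt2b, 1158 and 1270 counts in the NC libraries, against 1589 and 2102 in the KO libraries gave a log2 ratio of 0.51 (SE 0.11, adjusted p = 0.000382). Ugt2b34 and Ugt2b35 start 93.9 kb apart, Ugt2b1 with 5 counts lies between them, and the other 7 genes of the 601.1 kb cluster had 0 counts.

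The Ugt1a genes, which are alternative first exons joined to the same last exons and include the bilirubin-conjugating Ugt1a1, were nearly silent as a whole. Because reads in the shared exons cannot be assigned to 1 gene, the 9 genes are best read as a sum, which was 29 counts over all 4 libraries after rounding. That sum was 0.553 ± 0.0353 CPM in NC and 0.561 ± 0.149 in KO and fell under the filter.

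**Figure D4:**
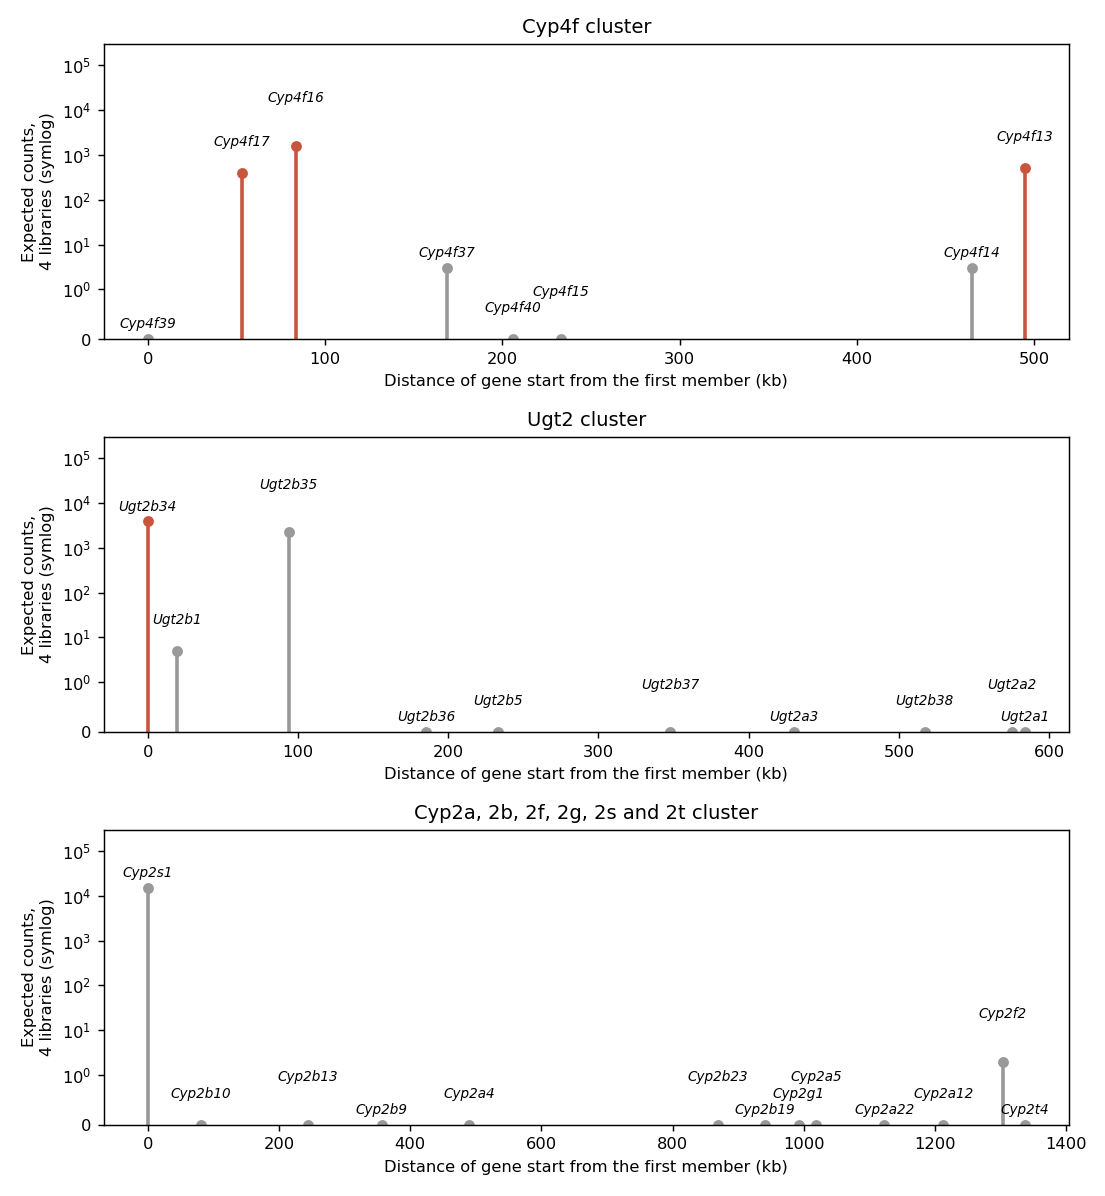
Expected counts summed over the 4 libraries (y axis, symmetric log scale, linear below 1) against the distance of each gene's start from the first member of its cluster (x axis, kb), for the Cyp4f, Ugt2 and chromosome 7 Cyp2 clusters. Red marks members higher in KO at an adjusted p under 0.05 and grey all others. In each cluster 1 to 3 genes carry most of the counts and the rest have 5 or fewer.

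Levels were also summed over each family, for which 2 against 2 libraries cannot pass a permutation test. The 76 P450 genes summed to 475.0 and 475.9 CPM in NC and 468.1 and 493.4 in KO, a ratio of 1.01 (exact two-sided permutation p = 1.0, where the smallest p possible with 2 against 2 libraries is 0.333). Cyp2s1 holds most of that sum, and without it the P450 genes summed to 184.0 ± 1.73 in NC and 197.3 ± 4.95 in KO, a ratio of 1.07 (exact permutation p = 0.333). Per length, the summed P450 TPM was 239.0 ± 0.615 in NC and 258.0 ± 2.62 in KO. The UGT genes summed to 102.4 and 92.3 CPM in NC and 121.1 and 156.3 in KO, a ratio of 1.42 with no overlap (exact permutation p = 0.333). Fewer cells expressing a gene and less RNA per cell cannot be told apart in such bulk libraries.

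Regulators of these genes moved in both directions. Of the 30 listed, 25 were tested, 8 were higher and 7 were lower in KO, with a median log2 fold change of -0.040. Beside them, 19.7% of all genes tested were higher and 18.2% were lower. Hnf4a, the nuclear receptor that maintains hepatocyte gene expression, had 2464 and 3143 counts in the NC libraries, against 1535 and 1433 in the KO libraries. It fell by 0.995 in log2 units (SE 0.093, adjusted p = 4.27e-09), from 221.8 ± 7.23 to 111.3 ± 7.37 CPM. The liver transcription factors Foxa2 (-0.89, adjusted p = 3.06e-08) and Foxa3 (-0.80, adjusted p = 3.34e-06) fell as well, while Foxa1 (0.37, adjusted p = 0.0299) and Cebpb (0.57, adjusted p = 0.000103), named after their values were seen, rose. Vdr, the vitamin D receptor, rose by 1.36 (SE 0.17, adjusted p = 3.25e-07).

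Among the receptors that sense foreign compounds, Ahr and Nr1i3 rose and Nr1i2 was not detected. Ahr had 1119 and 1378 counts in the NC libraries, against 1595 and 1687 in the KO libraries, a log2 ratio of 0.31 (SE 0.092, adjusted p = 0.00811), a call that was lost without NC replicate 1 and on the TPM scale (adjusted p 0.00544 to 0.123 over all alternatives). Its partner Arnt had 1057, 1314, 1291 and 1367 counts and a log2 ratio of 0.084 (SE 0.092, adjusted p = 0.497). Ahr was thus higher, and Cyp1a1 lower, in the same libraries. Nr1i3 had 18 and 8 counts in the NC libraries, against 43 and 51 in the KO libraries, a log2 ratio of 1.75 (SE 0.41, adjusted p = 0.000957), while its target Cyp2b10 had 0 counts in all libraries. With so few NC counts its size was uncertain: the log2 ratio was 2.59 without NC replicate 1 and 1.15 without NC replicate 2. NC replicate 2 was under the filter's level, so Nr1i3 was tested only because it was high in KO. The Nr1i3 call was kept in 10 of the 12 alternatives and lost on the log2(TPM + 0.1) scale and in the unfiltered TPM fit. Nr1i2 had 0 counts, and Ppara, the inducer of the Cyp4a genes, had 3, 5, 3 and 6 counts and was under the filter.

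**Figure D5:**
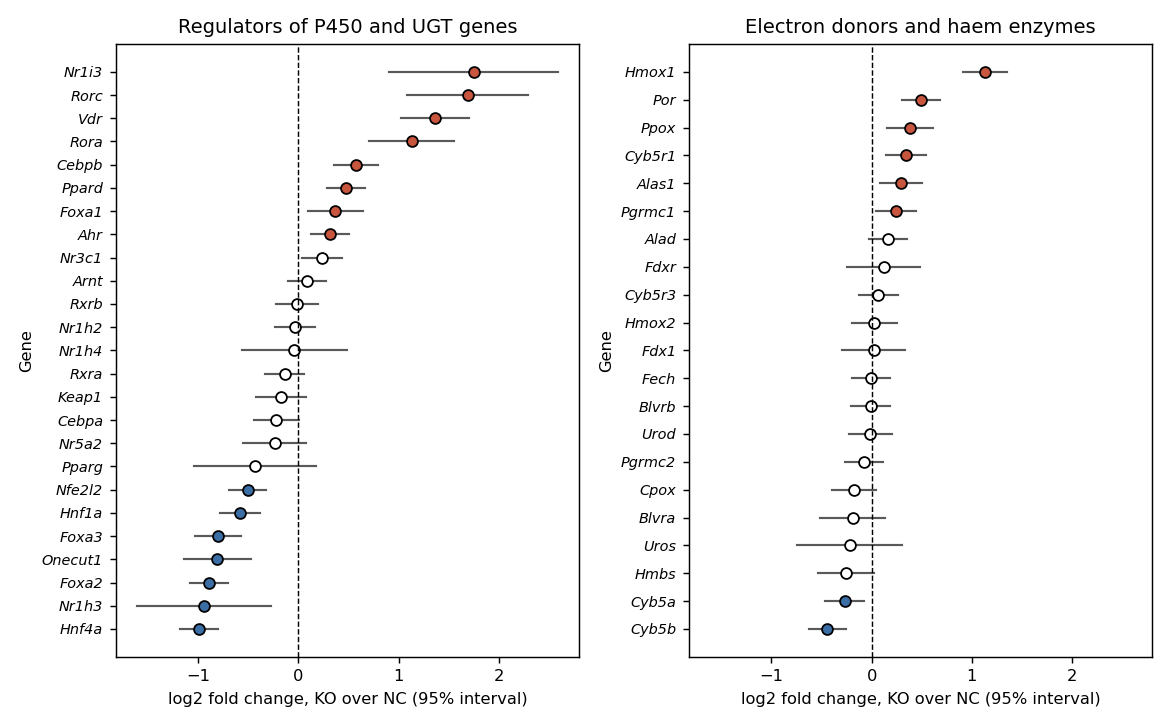
log2 fold change of KO over NC (x axis) with 95% intervals for the 25 tested regulators (left) and the 21 electron donors and haem enzymes (right), filled where the adjusted p was under 0.05. Hnf4a, at -0.995, is the lowest of the regulators and Nr1i3, at 1.75, the highest, and Hmox1 and Por lead the right panel.

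The gene of the main electron donor of P450 enzymes rose in KO. Por, the reductase that feeds all microsomal P450 enzymes, had 3255 and 4182 counts in the NC libraries, against 5489 and 5546 in the KO libraries. It rose from 294.1 ± 11.1 to 413.6 ± 4.28 CPM, a log2 ratio of 0.49 (SE 0.090, adjusted p = 0.000112). Of the 21 electron donors and haem enzymes, all tested, 6 were higher, 2 were lower and 13 did not pass, a share of calls near the 37.9% of all genes, with a median log2 fold change of 0.020. Hmox1, which breaks haem down, rose by 1.13 (SE 0.11, adjusted p = 4.49e-09), and Cyb5r1 rose by 0.34 (adjusted p = 0.00623). Cyb5b, the cytochrome b5 of the outer mitochondrial membrane, fell by 0.44 (adjusted p = 0.000338). Cyb5a, named after its value was seen, fell by 0.27 (adjusted p = 0.0274), a call that was not followed over the alternatives.

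The next list, of 10 genes, held genes that make or carry UDP-glucuronate, the donor sugar of the UGT enzymes, and other UGT genes. It also held the nucleotide transporter Slc35b1 and Gusb, which removes glucuronic acid, and 7 of the 10 were tested. Of these, 1 was higher and 4 were lower, with a median log2 fold change of -0.26. Beside them, 19.7% of all genes tested were higher and 18.2% were lower. Ugdh, which makes UDP-glucuronate, had 3909 and 4720 counts in the NC libraries, against 3642 and 3964 in the KO libraries, a log2 ratio of -0.26 (SE 0.090, adjusted p = 0.0217), a call that was lost in 6 of the 12 alternatives, among them the fits without NC replicate 1, NC replicate 2 or KO replicate 1. Slc35b1, a nucleotide transporter of the endoplasmic reticulum, fell by 0.60 (adjusted p = 3.78e-05), and Gusb, the lysosomal enzyme that removes glucuronic acid, fell by 0.38 (adjusted p = 0.00400), the latter not without KO replicate 2. Pgm1 rose by 0.46 (adjusted p = 0.000294).

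Of 8 other targets of Ahr, 4 were tested and 1 passed: Slc7a5, an amino acid transporter, fell by 0.47 (adjusted p = 0.000463), as Cyp1a1 did. Beside it stand 37.9% of all genes called. Nqo1 (0.18, adjusted p = 0.563), Tiparp (0.23, adjusted p = 0.111) and Aldh3a1 (-0.97, adjusted p = 0.119), named after their values were seen, did not pass. Of 21 P450 genes outside families 1 to 4, 8 were tested and 3 were higher. With 0 lower, the share of calls was near the 37.9% of all genes. Of the 3 higher genes, Cyp46a1 and Cyp26b1 were above the filter's level only in the KO libraries, so they were tested only because they were high there. Cyp39a1, an oxysterol hydroxylase, rose by 1.25 (SE 0.25, adjusted p = 0.000195). Cyp46a1, the cholesterol 24-hydroxylase best known from brain, was at 0 in each NC library and had 11 and 13 counts in the KO libraries, at least 7.72-fold higher with 3 counts taken as the floor over the NC group (adjusted p = 0.000266). Cyp26b1, which breaks down retinoic acid, had 6, 5, 21 and 16 counts (log2 fold change 1.64, SE 0.57, adjusted p = 0.0158), a call that was lost in 6 of the 12 alternatives, among them DESeq2 and the fits without NC replicate 2 and without KO replicate 1.

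Among 30 other drug-metabolising enzymes 19 were tested, 7 were higher and 2 were lower, with a median of 0.20. Ephx1, the microsomal epoxide hydrolase that acts on P450 products, rose by 0.83 (adjusted p = 7.51e-08), from 209.9 ± 11.1 to 372.6 ± 13.1 CPM. The glutathione transferase Gsta4 rose by 1.07 (adjusted p = 4.08e-06) and the flavin monooxygenase Fmo1 by 1.83 (SE 0.38, adjusted p = 0.000222). The sulfotransferase Sult1c2 had 75 and 77 counts in the NC libraries, against 21 and 17 in the KO libraries and fell by 2.08 (SE 0.32, adjusted p = 5.33e-06). Of 17 drug and bile acid transporters 9 were tested, 2 were higher, 1 was lower and 6 did not pass, with a median of 0.012. Abcc1 rose by 0.63 (adjusted p = 0.000115) and Abcg2 by 0.95 (adjusted p = 0.000594), and Abcb4, the phospholipid exporter of bile, was lower with 14, 11, 4 and 4 counts (log2 fold change -1.70, SE 0.66, adjusted p = 0.0296), a call that was lost in 7 of the 12 alternatives, among them DESeq2 and the fits without NC replicate 1, KO replicate 1 or KO replicate 2. Abcb4 was above the filter's level only in the NC libraries, so it was tested only because it was high there. Over these 7 lists 44 of 93 tested genes passed, 27 of them higher and 17 lower, beside 37.9% of all genes. On the log2(TPM + 1) scale the calls for Cyb5r1, Slc35b1, Gusb and Slc7a5 were lost.

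Marker lists of other liver cell types moved with the groups in part. The 10 hepatocyte markers summed to 1339 and 1266 CPM in NC and 1617 and 1817 in KO, with Alb and Trf higher and Fgb lower. Most of that sum was Alb and Trf. Of the 7 hepatocyte markers tested 4 did not pass, and the median log2 fold change of the 7 was -0.035. Beside this and the marker lists below, 37.9% of all genes tested were called. In those lists 5 cholangiocyte, 3 stellate cell and fibroblast, 2 leukocyte and 2 endothelial markers were tested. The 6 cholangiocyte markers summed to 462.8 and 449.8 in NC and 511.5 and 504.5 in KO, with Krt7, Krt19 and Epcam higher and Sox9 lower. The 7 stellate cell and fibroblast markers summed to 1472 and 1483 in NC and 1618 and 1694 in KO, with Des and Col1a1 higher and Col3a1 and Lum at 0. Most of that sum was Dcn, with 16689, 20472, 21149 and 22717 counts, which did not pass (adjusted p = 0.193). Col1a1 was above the filter's level only in the KO libraries, so it was tested only because it was high there. The 8 leukocyte markers summed to 24.0 and 27.4 in NC and 50.6 and 63.2 in KO, nearly all of it Cd68. The 6 endothelial markers summed to at most 2.11 in any library. Their part in the changes of the P450 and UGT genes was not tested.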

How the data were processed

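RNA was measured in 2 NC and 2 KO libraries made with a directional kit, per the labels' protocols. FastQC, STAR, RSEM and DESeq2, and the builds GRCm38 and mm10, are named in the submitters' processing notes. Versions, annotation and the strand setting of the counting are not given in the sources used here. The authors deposited expected counts per gene, estimated and not normalised, per the file headers. Their TPM values, also deposited, are scaled for length and depth per library, and the deposited FPKM values were not used. Transcript lengths in bases, a further column of the authors' files, were read for 1 gene.

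Expected counts were rounded, which changed library totals by at most 0.000188%. Genes were kept by edgeR's filterByExpr (minimum count 10, minimum total 15, here a CPM of 0.757 in 2 libraries), which left 12510 genes with at least 99.87% of each library's counts. KO and NC were compared with edgeR 4.0.16 (R 4.3.3), using TMM factors and the quasi-likelihood test with group as the only term. P-values are two-sided and were adjusted by Benjamini-Hochberg across the whole table, with a threshold of 0.05. Subfamily sums replaced their members in a second fit. Summed levels were tested by exact permutation. With 2 libraries per group the spread is shared across genes (prior degrees of freedom 25.8), and nothing says that the libraries came from separate cultures, so p-values measure only the spread between these libraries. Intervals cover counting error and the spread between these libraries. Limits for counts of 0 cover counting error only, and PCR copies were not separated.

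The gene families and the accompanying lists were chosen with earlier results of these data known, and the members within the families by symbol only. All tested members are named, members under the filter where they held at least 5 counts, classical liver genes at 0, and of each list up to 4 genes with the lowest p past the threshold. Ahr, Arnt, Nr1i2, Nr1i3, Ppara, Hnf4a and Por are named whatever their value. The alternatives were DESeq2 1.42.0, RLE factors, no filter, a robust fit, a replicate block, leaving out each library, and limma 3.58.1 on log2(TPM + 1) with and without the filter and on log2(TPM + 0.1).

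Gene positions are from GENCODE M21 on GRCm38, 1-based, which matched all 95 members by identifier without the version and 90 with it. Words of 50 bases were compared over all GENCODE M21 transcripts. Members less than 500 kb apart were counted as a cluster. Promoters are from RefSeq on GRCm38.p6 and were matched by symbol for 81 of the 95 members and 11 of the 13 tested. GCGTG and CCAAT were searched on both strands and TATAAA on the gene's strand. Scripts were tested on simulated data. Replicates of a group differed by more than counting noise (chi-square per degree of freedom 6.88 in NC and 9.44 in KO).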

Additional observations from a re-analysis of the deposited data

How the results depend on the processing

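Direction was kept for 12 of the 13 tested members under all 12 alternatives. The exception was Cyp2s1, whose log2 fold change of -0.040 became 0.0085 without KO replicate 1, 0.01136 on log2(TPM + 1) with or without the filter, and 0.01144 on log2(TPM + 0.1). With 1 library left out it ran from -0.08743 to 0.0085. As a subfamily sum it became 0.00869, 0.01136 and 0.01144 in the same fits and ran from -0.08725 to 0.00869 with 1 library left out. The 8 member calls became 5 with DESeq2, 4 on log2(TPM + 1), 4 on log2(TPM + 0.1) and 0 on log2(TPM + 1) without the filter, a limma fit that called 0 of 20640 genes and in which 6 members had an unadjusted p under 0.05. Of all genes, 25.7%, 17.3% and 16.8% were called in the first 3 of these fits, against 37.9%. Leaving out 1 library gave 5 to 9 member calls, with 5 without NC replicate 2 and 5 without KO replicate 2. The 5 called subfamily sums became 2, 2 and 0 on the same TPM scales and 3 to 5 with 1 library left out (3 without NC replicate 2, 3 without KO replicate 2). The 44 calls in the accompanying lists became 28, 24 and 0 on the TPM scales. The 13 expressed members became 22 at a TPM of at least 0.1 and 23 with a count in every library of a group as the rule. The log2 ratio of the summed P450 level, 0.016, was 0.11 on the TPM scale and ran from -0.023 without KO replicate 2 to 0.05354 without KO replicate 1. The cause of these differences was not tested.

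The labels give the NC and KO libraries shared replicate numbers but do not say what a number stands for, and same-numbered libraries did not deviate together (correlation -0.0116). With the replicate block 5006 genes were called against 4741 without it, and 9 members against 8. All 8 were kept, and Ugt2b35 was added (log2 fold change 0.30, adjusted p = 0.0183). Where 1 library was left out, the single library of its group was assumed to vary like the other group. Depth limits the 21 members with counts under the filter. In the unfiltered edgeR fit 0 of them were called, with 1 at an unadjusted p under 0.05, and the unfiltered limma fit gave the same numbers.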
